A study of Caenorhabditis elegans with 3 samples.

Results

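The genes described here encode the numbered nuclear hormone receptors of Caenorhabditis elegans, and the data say where the transcription factor ELT-3 was recovered on or near them in first-stage (L1) larvae. Members were the protein-coding genes of the Ensembl annotation of WBcel235 whose symbol is nhr- followed by a digit, without nhr-23 and nhr-25. This gave 267 genes of 19973 protein-coding genes on the 6 nuclear chromosomes. They are defined by gene name alone. All samples came from 1 group, larvae of strain OP75 with the genotype unc-119(ed3) III; wgIs75, males and females pooled, which stably express ELT-3 with a C-terminal GFP-FLAG tag. There was no untagged or untreated group, and the control experiment named in the labels was not analysed here. Neither the promoter that drives the transgene nor its copy number is stated in the labels. Whole larvae were used, so a peak cannot be assigned to a tissue, and the files hold no expression by which cell types could be checked.

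Nuclear hormone receptors are transcription factors with a zinc finger DNA-binding domain and a ligand-binding domain, through which lipids, sterols or other small molecules can change their activity. The nematode family is far larger than that of insects or vertebrates, and most of its members descend from an ancestor related to HNF4. The receptors with known roles adjust fat, propionate and xenobiotic metabolism to food and stress. ELT-3 belongs to the GATA factors, which bind short sites around the letters GATA, and is known mainly from the epidermis.

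Chromatin immunoprecipitation and sequencing (ChIP-seq) recovers DNA bound by a protein and reports enriched stretches as peaks, each with a summit. The 3 libraries made up 2 biological replicates, since the 2 technical libraries of replicate 2 share an alignment and were counted as 1 sample. The main list holds 1202 peaks kept by the authors' irreproducible discovery rate (IDR) threshold. The pooled list, with 10082 peaks, also holds weak entries, and all 1202 IDR peaks are its strongest. Replicate 1 had 10775 peaks of its own and replicate 2 had 4055 on the nuclear chromosomes. The IDR list follows replicate 1: every IDR peak was overlapped by a replicate 1 peak, and 117 of them (9.73%) by a replicate 2 peak. The lists hold no read counts, so depth is unknown. The signal of a peak is the authors' own value and is compared only within a list.

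A receptor gene was assigned a summit under 3 rules. The promoter rule asked for a summit in a window reaching 1000 bp upstream and 200 bp downstream of the gene's 5′ end, the body rule for a summit between the gene's start and end, and the nearest rule for the gene to have the nearest protein-coding 5′ end, at any distance. In the IDR list, 31 of the 267 receptor genes (11.6%) met at least 1 rule, against 6.44% of all protein-coding genes. With pooled peaks, 98 of the 267 (36.7%) did, against 39.0% of all protein-coding genes. Between them, the 31 receptor genes of the IDR list held 47 peaks, and the 98 of the pooled list held 250. A GATA site was a match on either strand, within 50 bp of a summit, to the word AGATAA or to the word AGATAG, or to either of them with T in place of the first letter, which gives TGATAA in the one case and TGATAG in the other.

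The windows printed here are the 101 bases centred on a summit, on the plus strand of WBcel235 and read 5′ to 3′ from the RefSeq genome of that assembly. The first set shows the receptor peaks with 2 or more GATA sites, with the sites in capitals. A site on the minus strand appears as its reverse complement, and sites may overlap. They lie at nhr-80 (chrIII:15402-15502), nhr-119 (chrII:2800940-2801040), nhr-48 (chrX:15704579-15704679), nhr-31 (chrIV:8026545-8026645), nhr-45 (chrX:4663458-4663558), nhr-14 (chrX:8475230-8475330) and nhr-19 (chrII:9601193-9601293).
nhr-80 (signal 112.1): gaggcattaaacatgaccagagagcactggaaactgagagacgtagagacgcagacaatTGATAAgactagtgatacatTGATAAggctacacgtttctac
nhr-119 (signal 80.8): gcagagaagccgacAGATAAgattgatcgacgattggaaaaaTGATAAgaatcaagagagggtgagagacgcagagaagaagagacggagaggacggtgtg
nhr-48 (signal 66.6): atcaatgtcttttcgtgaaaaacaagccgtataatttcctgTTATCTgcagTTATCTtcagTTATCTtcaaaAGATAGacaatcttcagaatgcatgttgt
nhr-31 (signal 53.1): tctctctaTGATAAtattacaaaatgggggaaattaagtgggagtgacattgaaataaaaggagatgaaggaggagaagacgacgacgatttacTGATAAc
nhr-45 (signal 49.9): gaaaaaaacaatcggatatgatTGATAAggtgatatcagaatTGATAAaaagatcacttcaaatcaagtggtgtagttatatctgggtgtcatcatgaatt
nhr-14 (signal 46.5): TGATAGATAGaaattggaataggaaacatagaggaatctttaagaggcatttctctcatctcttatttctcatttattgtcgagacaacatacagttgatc
nhr-19 (signal 44.4): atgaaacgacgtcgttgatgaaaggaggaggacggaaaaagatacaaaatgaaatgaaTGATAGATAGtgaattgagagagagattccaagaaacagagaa

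In nhr-48, 4 sites stood within one short stretch at the summit, 3 of them on the minus strand with the same orientation. In nhr-80, nhr-31 and nhr-45, both sites were TGATAA on the plus strand. In nhr-14 and nhr-19 the 2 sites share bases, so each of these windows has a single stretch of GATA letters.

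The second set shows the 3 strongest receptor peaks that have no such site within 50 bp of the summit. They lie in an intron of nhr-19 (chrII:9603565-9603665), upstream of nhr-162 (chrV:6994125-6994225) and upstream of nhr-14 (chrX:8477618-8477718). All letters are in lower case because no site was found in these windows, which says nothing of sites farther away.
nhr-19 (signal 90.4): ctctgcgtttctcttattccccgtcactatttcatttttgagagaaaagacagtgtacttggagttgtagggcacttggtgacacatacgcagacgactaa
nhr-162 (signal 89.0): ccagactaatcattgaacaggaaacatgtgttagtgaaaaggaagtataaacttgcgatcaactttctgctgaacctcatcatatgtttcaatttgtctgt
nhr-14 (signal 88.2): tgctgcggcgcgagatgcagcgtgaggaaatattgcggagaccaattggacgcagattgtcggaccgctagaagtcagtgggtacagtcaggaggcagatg

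The share of receptor genes with an IDR summit in the promoter was close to that of all genes, while the shares with a summit in the gene body or nearest to the gene were higher. The promoter rule was met by 9 receptor genes (3.37%, exact 95% Clopper-Pearson interval 1.55 to 6.3), against 3.44% of all protein-coding genes. The body rule was met by 12 (4.49%, interval 2.34 to 7.72), against 1.65%. The nearest rule was met by 28 (10.5%, interval 7.08 to 14.8), against 5.18%. Of these 28, 12 met the nearest rule alone. The design has 1 condition and no group to test against, so these shares are set beside the background as a description, and the intervals cover counting error only.

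The signals of the 47 receptor peaks ran from 35.7 to 112.1 with a median of 46.5, and those of all 1202 IDR peaks from 35.5 to 276.4 with a median of 48. At or above the median of the whole list lay 22 of the 47. Receptor promoters held 10 of the 47 and receptor bodies 15, of which 11 were in introns and 4 in exons. The exon peaks of nhr-80 and nhr-104 lay in the promoter window too and are counted in both classes. Another 24 lay outside promoters and bodies. Of those, 22 were upstream of the gene, at 1034 to 8134 bp with a median of 2388 bp, and 2 were downstream. Outside receptor promoter windows thus lay 37 of the 47 (78.7%). Of all IDR peaks, 672 of 1202 (55.9%) lay outside every promoter window, so most of the whole list was outside promoters too. A single peak was found for 18 receptor genes, 11 had 2, nhr-46 had 3 and nhr-31 had 4.

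**Figure D1:**
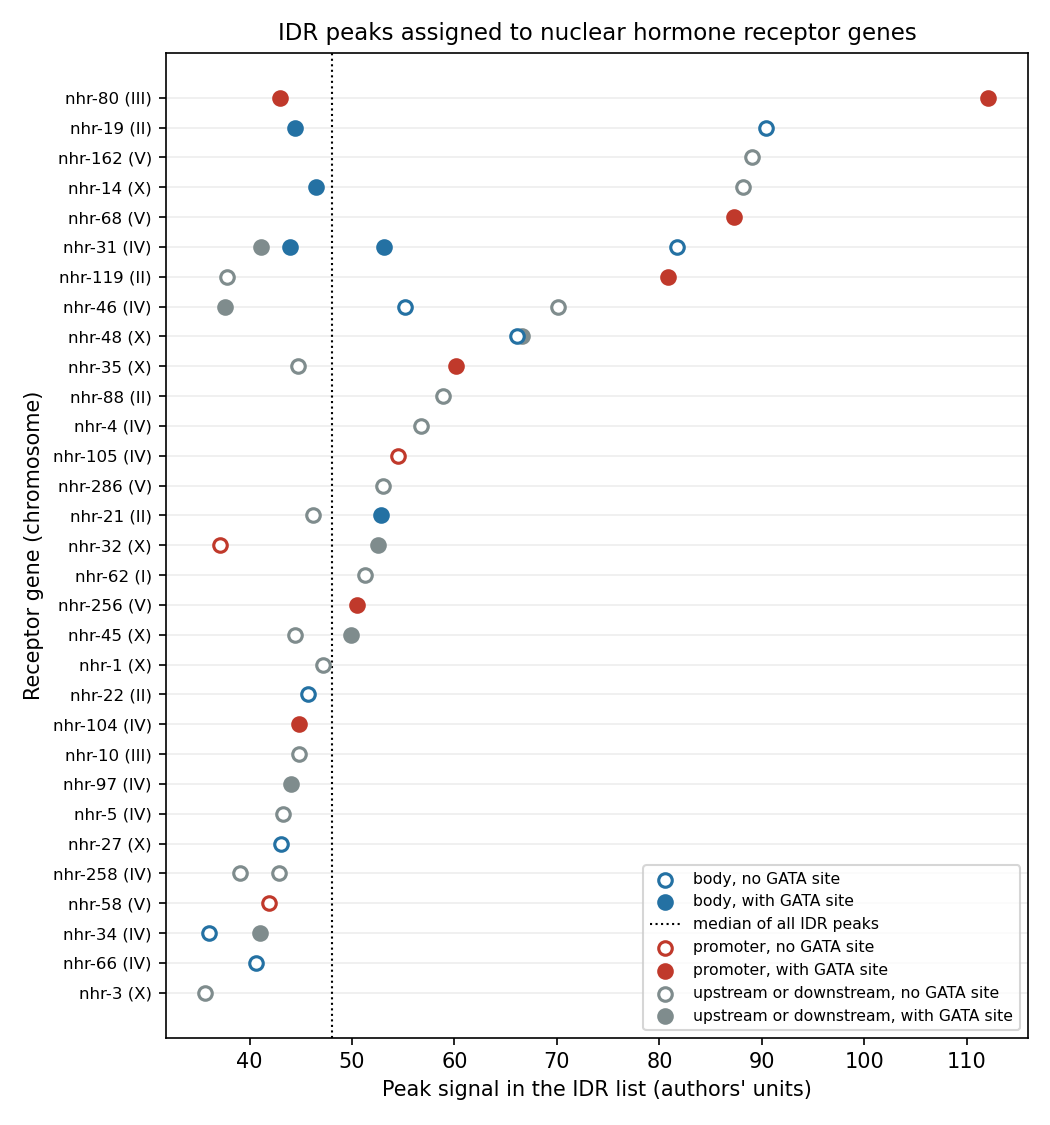
Signal of each of the 47 IDR peaks (horizontal axis, the authors' units) for the 31 receptor genes with any (vertical axis, chromosome in parentheses), coloured by where the summit lies and filled where a GATA site is within 50 bp. The highest point is the nhr-80 promoter peak at 112.1, and the dotted line is the median of all IDR peaks, 48.

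Among the 9 promoters, the strongest peak was that of nhr-80, which encodes a receptor needed for fatty acid desaturation. Its summit lay 583 bp upstream of the 5′ end (WBcel235 chromosome III, peak 15304 to 15599), with a signal of 112.1, rank 35 of the list, and the 2 GATA sites printed above. The same summit lay in the promoter window of H10E21.1, whose 5′ end was nearer at 320 bp. A second peak, with a signal of 43.0 and 1 site, lay in an exon 18 bp from the 5′ end (14703 to 14998) and was nearest to nhr-80 itself. The second strongest promoter peak belonged to nhr-68, a receptor that acts in the propionate shunt. It had a signal of 87.3, 1 site, and a summit 418 bp upstream (V, 11572874 to 11573169), but only 32 bp from the 5′ end of H12C20.7, so it is shared between both promoters.

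The other 7 promoter genes had no neighbour in the same window. The peak of nhr-119 was the strongest of them, with a signal of 80.8 at 390 bp upstream (II, 2800842 to 2801137) and 2 sites. It was followed by nhr-35 (signal 60.1 at 352 bp upstream, 1 site), nhr-105 (signal 54.5 at 365 bp upstream, no site) and nhr-256 (signal 50.5 at 87 bp upstream, 1 site). The lowest signals were those of nhr-104 (signal 44.8, in an exon 146 bp from the 5′ end, 1 site), nhr-58 (signal 41.9 at 47 bp upstream, no site) and nhr-32 (signal 37.1 at 309 bp upstream, no site). Of the 9 genes, 3 (nhr-58, nhr-68 and nhr-256) lie on chromosome V. A further peak farther upstream accompanied the promoter peak at nhr-32 (signal 52.5 at 1599 bp), nhr-35 (signal 44.7 at 3617 bp) and nhr-119 (signal 37.8 at 2473 bp). At nhr-32 the distal peak was the stronger one, at the other 2 genes the promoter peak.

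Of the 6 receptors listed for fat metabolism and fasting, 3 met a rule in the IDR list. After nhr-80 came nhr-62, a receptor required for the long life of worms under dietary restriction, with a signal of 51.3 at 2284 bp upstream (I, 9837166 to 9837461) and no site. The third was nhr-66, a partner of NHR-49, with a signal of 40.6 in an exon 6936 bp from the 5′ end. That summit was nearest to serp-1.2, at 3992 bp, so nhr-66 met the body rule alone. The gene of NHR-49 itself, which directs the response to fasting, had no IDR peak. Its strongest pooled peak had a signal of 31.6 at 154 bp upstream, rank 1518, below the lowest IDR signal of 35.5. For nhr-76, which acts in serotonin-driven fat loss, the pooled list had 1 peak with a signal of 17.5 at 1015 bp upstream, and for nhr-13, whose product binds NHR-49, it had none.

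Of the 3 receptors listed for propionate, vitamin B12 and methionine, 2 met a rule (66.7%, interval 9.43 to 99.2, all protein-coding genes 6.44%). Besides nhr-68, described above, this was nhr-10, which acts with it in the propionate shunt and had a signal of 44.8 at 1415 bp upstream (III, 7116705 to 7117000) with no site. The third, nhr-114, which protects worms on diets poor in vitamin B12, had a strongest pooled signal of 27.0 at 513 bp upstream.

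Of the 10 receptors with recognised counterparts outside nematodes, 1 met a rule in the IDR list. This was nhr-48, a relative of DAF-12 and NHR-8, and its 2 peaks were almost equal. The upstream peak, at 3584 bp (X, 15704481 to 15704776), had a signal of 66.6 and 4 sites, the most at any receptor peak. The intronic peak, 1472 bp inside the gene (15709537 to 15709832), had a signal of 66.1 and no site. In the pooled list 8 of the 10 met a rule, where 39.0% of all protein-coding genes did. The strongest pooled signals were 31 for nhr-91, the GCNF relative, 28.4 for nhr-69 and 23.8 for nhr-64, both related to HNF4, and 23.7 for nhr-41, the relative of vertebrate NR2C and NR2D receptors. They were 22.4 for nhr-85, the relative of E75 and Rev-erb, 19.6 for nhr-67, the tailless relative, and 16.6 for nhr-8. All of these values lie below the lowest IDR signal. No pooled peak met a rule for nhr-6, the NR4A receptor, or for nhr-111, which is also related to tailless.

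None of the 3 receptors listed for toxin and pathogen response met a rule in the IDR list (interval 0 to 70.8, all protein-coding genes 6.44%). Of these, nhr-8, needed for resistance to toxins, had its pooled signal of 16.6 in an intron 417 bp from the 5′ end. For nhr-86, which acts in the response to pathogens, and nhr-176, which acts in the metabolism of thiabendazole, no pooled peak met a rule. The single replicates listed some: replicate 1 had a summit in the nhr-86 promoter, and replicate 2 had one in the body of nhr-86 and both promoter and body summits at nhr-176.

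Of the 7 receptors listed for other roles, nhr-31 and nhr-14 met a rule (28.6%, interval 3.67 to 71.0, all protein-coding genes 6.44%). The most peaks of any receptor gene were at nhr-31. NHR-31 controls vacuolar ATPase genes in the excretory cell. Its 3 intronic peaks lay 1001 bp (signal 81.7, no site), 2025 bp (signal 43.9, 1 site) and 2918 bp (signal 53.1, 2 sites) from the 5′ end, between 8026447 and 8028659 on chromosome IV. The fourth peak lay 7197 bp upstream (signal 41.1, 1 site). The strongest of the 4 lay 1 bp from the annotated 5′ end of C26B2.12, a non-coding gene. For nhr-14, which acts in iron uptake, the upstream peak had a signal of 88.2 at 1490 bp (X, 8477520 to 8477815, no site) and the intronic peak a signal of 46.5 at 898 bp (2 overlapping sites). The remaining 5 had no IDR peak. Their strongest pooled signals were 34.3 for nhr-40, which acts in muscle and movement, 34.0 for nhr-28 and 29.5 for nhr-57, which is induced by hypoxia, while none met a rule for nhr-2, active in early embryos, or nhr-60, active in seam cells.

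**Figure D2:**
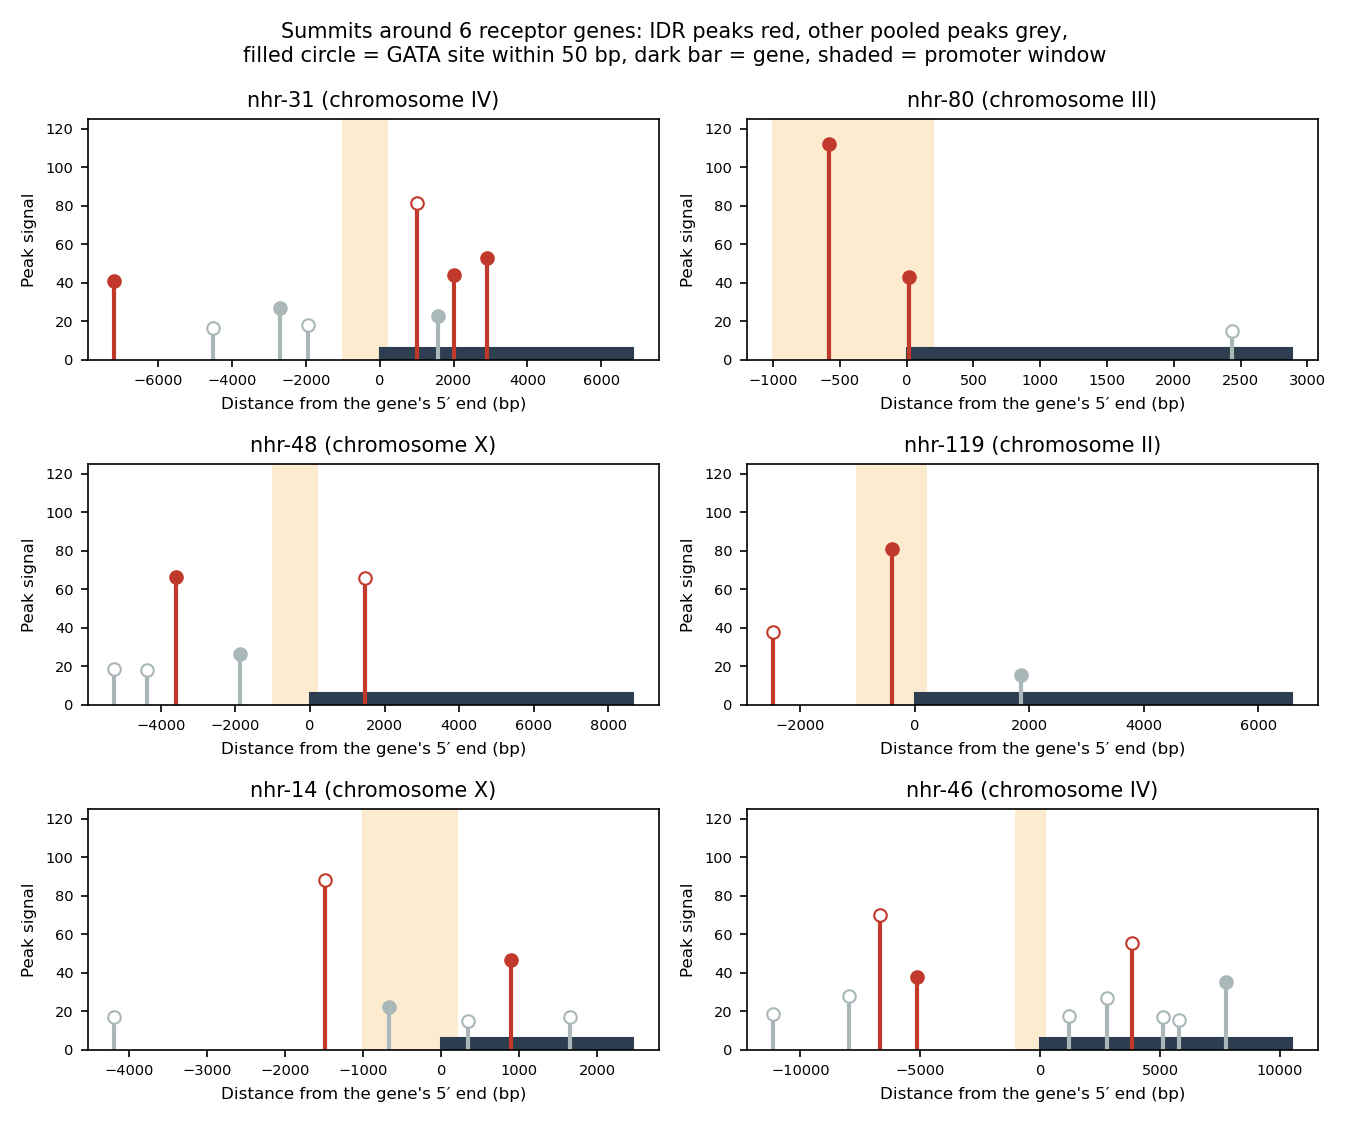
Summits assigned to 6 receptor genes with strong or multiple IDR peaks, by distance from the gene's 5′ end (horizontal axis, bp, negative upstream) and signal (vertical axis). Red lines are IDR peaks and grey lines other pooled peaks, filled circles have a GATA site within 50 bp, the dark bar is the gene and the shaded stretch the promoter window. Of the 6 genes, IDR summits lie in the shaded stretch at nhr-80 and nhr-119, and lie upstream of it or inside the gene at nhr-31, nhr-48, nhr-14 and nhr-46.

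Over the role lists, 8 of 28 listed receptors (28.6%, interval 13.2 to 48.7) met a rule in the IDR list and 23 of the 239 unlisted ones (9.62%, interval 6.2 to 14.1). Of all protein-coding genes, 6.44% did. In the pooled list the counts were 21 of 28 (75.0%) and 77 of 239 (32.2%), with 39.0% of all protein-coding genes. The listed genes lie mostly away from chromosome V: 8 of the 28 listed and 159 of the 239 unlisted genes are on V. In the IDR list 5 of the 167 receptor genes on V met a rule (2.99%), and 26 of the 100 elsewhere (26.0%). On V, 1 of 8 listed and 4 of 159 unlisted genes met a rule in the IDR list. Elsewhere it was 7 of 20 (35.0%, interval 15.4 to 59.2) and 19 of 80 (23.8%, interval 14.9 to 34.6), intervals that overlap widely. No share of all genes is given for this split. The listed genes are also longer, with a median of 4852 bp against 2185 bp, and the part of length was not tested.

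The other receptor genes with IDR peaks are given without a role. In their bodies, nhr-19 had the strongest intronic peak of any receptor (signal 90.4, 1911 bp from the 5′ end, II, 9603467 to 9603762) and a second one (signal 44.4 at 4283 bp), whose nearest 5′ end was that of mrpl-53. In nhr-21 an intronic peak lay at 3909 bp (signal 52.8, 1 site) and another peak 1532 bp upstream (signal 46.2). In nhr-46 an intronic peak lay at 3814 bp (signal 55.2), and 2 more lay 5125 bp (signal 37.6, 1 site) and 6656 bp (signal 70.1) upstream. In nhr-34 they lay 5613 bp inside the gene (signal 36) and 1738 bp upstream (signal 41, 1 site). The peak of nhr-22 was exonic (signal 45.7 at 1364 bp). The intronic peak of nhr-27 (signal 43.1) lay 48477 bp from the 5′ end of a gene that the annotation makes 102756 bp long, and was nearest to cept-1, so it says little about nhr-27.

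Outside promoter and body, the strongest peak was that of nhr-162 on chromosome V, with a signal of 89.0 at 2304 bp upstream (6994027 to 6994322) and no site. Peaks with no site also lay upstream of nhr-88 (signal 58.9 at 2536 bp), nhr-4 (signal 56.7 at 3527 bp) and nhr-1 (signal 47.2 at 8134 bp). The upstream peaks of nhr-45 had signals of 49.9 at 3190 bp with 2 sites and 44.4 at 2218 bp with none. Lower signals were found upstream of nhr-97 (44.0 at 1730 bp, 1 site), nhr-5 (43.3 at 1519 bp) and nhr-258 (42.9 at 2730 bp and 39.1 at 1034 bp). Downstream of the 5′ end and beyond the gene lay the peaks of nhr-286 (signal 53.0 at 2203 bp) and nhr-3 (signal 35.7 at 3171 bp, the lowest of the 47). For 20 of the 47 peaks, at 13 receptor genes, a non-coding gene had a nearer 5′ end than any protein-coding gene. Examples are a non-coding RNA 15 bp from the nhr-3 summit and piRNA genes nearest to all 3 nhr-46 summits. The same share over all IDR peaks is not given, so nothing is said of whether this is particular to receptor peaks. Counted over genes of all types, 19 receptor genes were nearest to an IDR summit (7.12%) against 3.42% of protein-coding genes.

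The receptor genes nearest to IDR summits lay mostly outside chromosome V, where most receptor genes are. Chromosome V holds 167 of the 267, and 4 of those (2.40%, interval 0.656 to 6.02) were nearest to an IDR summit, against 3.40% of all genes on V. Of the 100 receptor genes elsewhere it was 24 (24.0%, interval 16 to 33.6), against 5.77% of all genes there. The body rule gave 0 of 167 on V (interval 0 to 2.18) and 12 of 100 elsewhere (12%, interval 6.36 to 20.0), against 1.10% and 1.83% of all genes. The promoter rule separated them less, with 1.80% on V and 6.0% elsewhere (interval 2.23 to 12.6), against 2.16% and 3.87%. When replicate 2's own 1202 strongest peaks were used, the body shares on V and elsewhere lay closer together and the promoter shares were in the opposite order. The body rule was met there by 8 of 167 on V (4.79%, against 2.80% of all genes) and 7 of 100 elsewhere (7.0%, against 3.93%). The promoter rule was met by 4 of 167 on V (2.40%, against 1.5%) and 1 of 100 elsewhere (1.0%, against 1.59%). This division was made after the values were seen and is a description.

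Outside V the difference was spread over chromosomes. The nearest rule was met by 9 of 33 receptor genes on IV (all genes there 4.69%), 7 of 22 on X (all genes 7.84%), 5 of 15 on II (all genes 4.67%) and 2 of 8 on III (all genes 6.25%). On chromosome I it was 1 of 22, nhr-62 (4.55%, interval 0.115 to 22.8), against 5.94% of all genes there. Receptor genes outside V stand in wider surroundings: the median stretch of genome nearest to their 5′ end was 5993 bp, against 4093 bp for all genes there. Per megabase of that stretch, receptor genes outside V had 49.6 IDR summits and all genes there 12.7. On V the values were 6.18 and 9.17 per megabase. The part of this width in the shares was not tested. Chromosome V was cut into 3 stretches of equal length, and the receptor genes of the left, middle and right stretch had 6.43, 15.9 and 0 summits per megabase against 6.59, 15.6 and 5.31 for all genes of the same stretch. These receptor values rest on only 2, 2 and 0 summits.

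**Figure D3:**
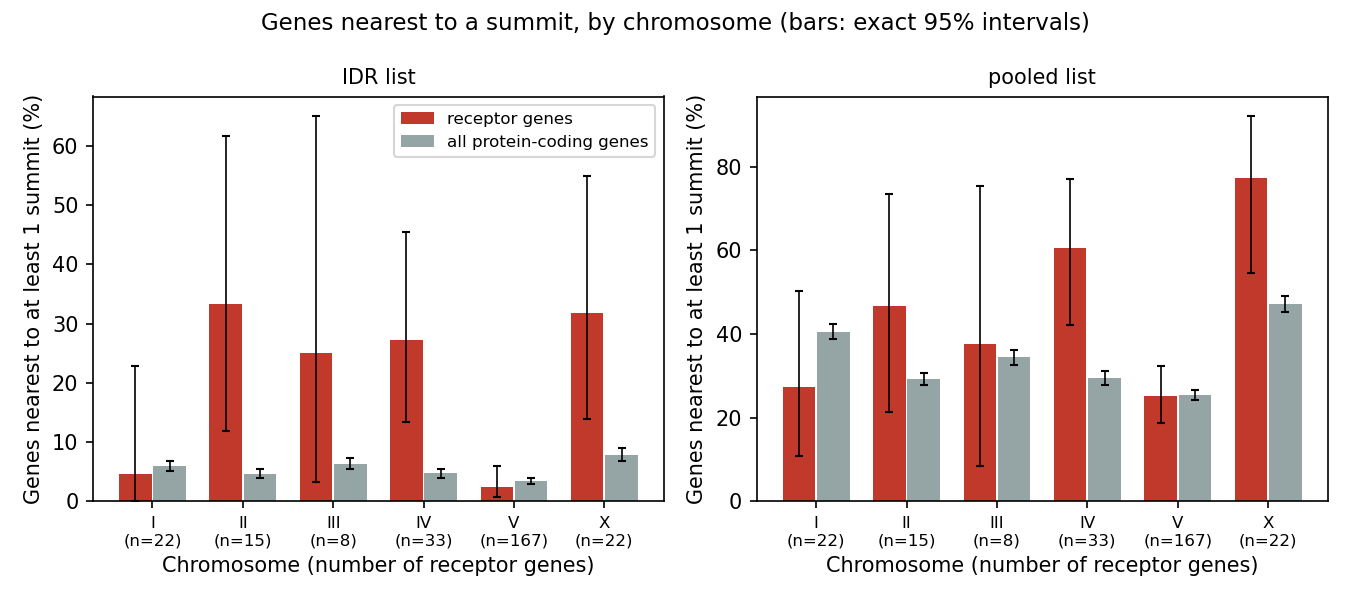
Share of receptor genes (red) and of all protein-coding genes (grey) that are nearest to at least 1 summit, by chromosome, in the IDR list (left) and the pooled list (right); bars are exact 95% intervals over genes. Receptor genes stand above all genes on II, III, IV and X in the IDR list, with wide intervals, and not on I or V.

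Of the receptor genes beside another receptor gene, 5 of 136 (3.68%, interval 1.2 to 8.37) were nearest to an IDR summit. For those beside none it was 23 of 131 (17.6%, interval 11.5 to 25.2), against 5.18% of all protein-coding genes. Of the 136, 107 lie on V. Away from V the counts were 2 of 29 (6.90%, interval 0.846 to 22.8) and 22 of 71 (interval 20.5% to 43.1%). All genes there stood at 5.77%, inside the interval of the 29 and below that of the 71. On V the counts were 3 of 107 (2.80%, interval 0.582 to 7.98) and 1 of 60 (1.67%, interval 0.0422 to 8.94). The shares on V were in the opposite order, and all genes of V stood at 3.40%, inside both intervals. Receptor genes with an IDR peak were also longer, with a median of 4321 bp against 2181 bp for those without. The body rule takes in more bases at a longer gene, and its part in this difference was not tested. The promoter windows of the receptor genes with an IDR peak held a median of 4 GATA sites, and those of the other receptor genes 3. The shares of windows with at least 1 site were in the opposite order, at 90.3% and 93.6%. Over all 267 receptor genes and over all protein-coding genes the median was 3, and 93.3% of windows in either set held at least 1 site.

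In the pooled list, the promoter rule was met by 51 receptor genes (19.1%) against 17.9% of all protein-coding genes, the body rule by 55 (20.6%) against 19.4%, and the nearest rule by 95 (35.6%) against 33.1%. With the weak peaks included, receptor genes as a whole were therefore near the background under each rule. The division by chromosome was present here too, with 25.1% on V nearest to a pooled summit against 25.4% of all genes there, and 53.0% elsewhere (interval 42.8 to 63.1) against 35.6%. Over the 500 strongest pooled peaks the shares elsewhere were 13% and 2.63%, and over the 5000 strongest 45.0% and 20.3%. Among the 100 strongest they were 2.00% (interval 0.243 to 7.04) and 0.574%, so that the interval includes the value of all genes.

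**Figure D4:**
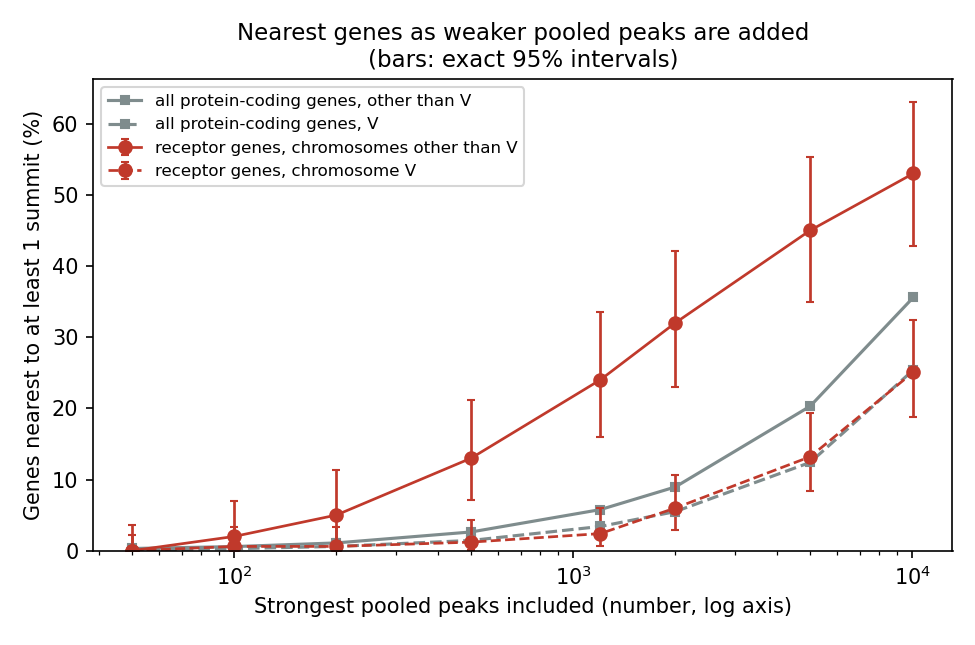
Share of genes nearest to at least 1 summit (vertical axis) as weaker pooled peaks are added (horizontal axis, number of strongest peaks, log axis), for receptor genes (red, exact 95% intervals) and all protein-coding genes (grey), on chromosome V (dashed) and elsewhere (solid). Receptor genes outside V reach 24.0% at the 1202 IDR peaks and 53.0% at all 10082, and those on V run beside all genes of V.

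Outside the IDR list, 42 receptor promoters held a pooled summit, with signals from 14.9 to 35.3 and a median of 20.7. The promoter shares of both lists were near those of all genes. They were 19.1% against 17.9% in the pooled list and 3.37% against 3.44% in the IDR list. The 10 strongest were nhr-47 (35.3), nhr-21 (34.3), nhr-17 (33.6), nhr-135 (33.2), nhr-49 (31.6), nhr-1 (30.0), nhr-57 (29.5), nhr-237 (27.6), nhr-114 (27.0) and nhr-3 (26.6), all values being peak signals. The summits of nhr-47 and nhr-21 lay 12 bp and 1 bp upstream of the 5′ end, and the nhr-47 window is shared with dnj-19. The authors' q-values of these 10 ran from 0.00619 for nhr-47 to 0.0817 for nhr-3, and the boundary of the IDR list at 35.5 lies just above the first of them. Of the 42, 14 had a GATA site and 1, nhr-17, was overlapped by a replicate 2 peak.

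Replicate 2 had fewer peaks, and fewer receptor genes met each rule there. In replicate 1 the promoter, body and nearest rules were met by 57, 57 and 103 receptor genes (21.3%, 21.3% and 38.6%), against 18.7%, 20.6% and 34.6% of all genes. In replicate 2 they were met by 16, 38 and 52 (5.99%, 14.2% and 19.5%), against 5.30%, 10.9% and 16.3%. Of the 16 receptor promoters in replicate 2, 2 (12.5%) also held a pooled summit and 1 (6.25%) an IDR summit, and of all 1058 promoters with a replicate 2 summit 26.1% and 6.62% did. Among the 47 receptor IDR peaks, 9 (19.1%) were overlapped by a replicate 2 peak, against 117 of all 1202 IDR peaks (9.73%). The 9 were both peaks of nhr-14 and 1 each of nhr-21, nhr-22, nhr-31, nhr-32, nhr-46, nhr-48 and nhr-162. The upstream nhr-14 peak stood out among them as rank 13 in replicate 2, with a signal of 7.18 on that list's own scale, while the next best, that of nhr-21, was rank 833. Of the promoter peaks, that of nhr-32 alone was overlapped by replicate 2. Taking the 1202 strongest peaks of each replicate alone, receptor genes outside V were nearest to a summit in 24.0% (replicate 1) and 14% (replicate 2, interval 7.87 to 22.4) against 5.80% and 5.61% of all genes there. On V they were so in 2.40% and 5.39% against 3.36% and 4.43%.

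The share of receptor peaks with a GATA site was close to that of IDR peaks in general. Within 50 bp of the summit, 19 of 47 receptor peaks (40.4%, interval 26.4 to 55.7) held a site, against 468 of 1202 IDR peaks (38.9%). In windows of the same length 500 bp to either side of the receptor peaks it was 15 of 47 (31.9%) and 13 of 47 (27.7%), and in adjacent windows over the genome 19.8%. Of the 28 sites at receptor peaks, TGATAA made up 13, while AGATAA made up 6, TGATAG made up 5 and AGATAG made up 4. Receptor peaks in a receptor promoter held a site in 7 of 10 cases (70.0%, interval 34.8 to 93.3), against 150 of 530 promoter peaks of the whole list (28.3%). Outside receptor promoters it was 12 of 37 (32.4%, interval 18.0 to 49.8), against 318 of 672 peaks outside promoters (47.3%). The promoter share rests on 10 peaks at 9 genes, and 3 of these peaks, 2 at nhr-80 and 1 at nhr-68, also lie in the promoter window of another gene. In the pooled list the share in receptor promoters was 22 of 57 (38.6%, interval 26.0 to 52.4) against 28%, and over all receptor peaks 74 of 250 (29.6%) against 27.5%. Receptor windows were slightly richer in A and T, with a median of 57.4% in the IDR list against 55.4% over all its peaks, and the part of base composition was not tested.

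**Figure D5:**
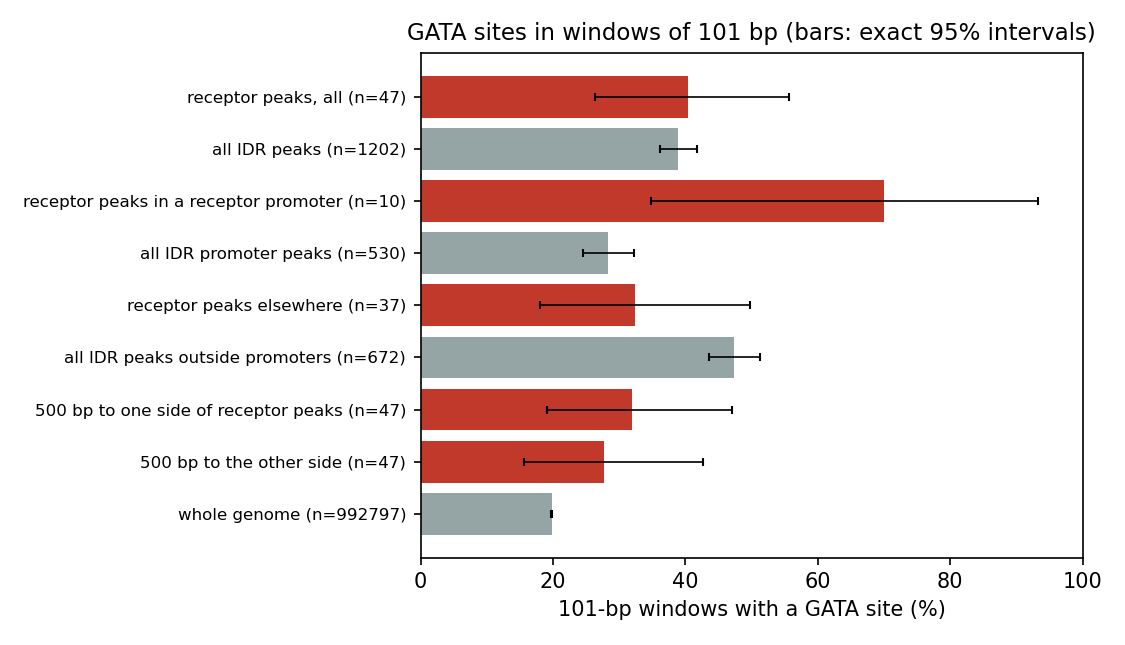
Share of 101-bp windows with at least 1 GATA site (horizontal axis, %), for receptor peaks of the IDR list and windows beside them (red) and for all IDR peaks and the genome (grey); bars are exact 95% intervals and n is the number of windows. The 10 receptor promoter peaks are at 70.0% with a wide interval, and receptor peaks as a whole are at 40.4% beside 38.9% for all IDR peaks.

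Around the receptors, 21 other genes of the same pathways were examined. Of these, 4 met a rule in the IDR list, where 6.44% of all protein-coding genes did. Of 3 cofactors, din-1, a corepressor of DAF-12, had 3 peaks, the strongest with a signal of 66.1 at 2376 bp upstream. The acetyltransferase gene cbp-1 had 1 with a signal of 64.7 at 901 bp upstream. The Mediator subunit gene mdt-15 had a pooled peak alone, with a signal of 16.8. Of 5 genes known as targets of NHR-49 and NHR-80, 2 met a rule. The desaturase gene fat-6 had a signal of 51.5 inside the gene, 756 bp from the 5′ end, with 1 GATA site, and the acyl-CoA synthetase gene acs-2 a signal of 38 at 766 bp upstream. The other desaturase genes fat-5 and fat-7 had no IDR peak. None of the 5 receptors named otherwise (daf-12, fax-1, odr-7, sex-1 and unc-55), of the 4 genes of steroid ligand synthesis (daf-9, daf-36, dhs-16 and hsd-1) or of the 4 propionate shunt genes controlled by NHR-10 and NHR-68 (acdh-1, hphd-1, hach-1 and ech-6) met a rule in the IDR list. Among pooled peaks 13 of the 21 did, where 39.0% of all protein-coding genes did.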

How the data were processed

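ChIP-seq peak lists of 3 libraries (2 biological replicates, 1 group) were used. The authors' files are in narrowPeak layout: every entry carries the authors' deposited signal, on a scale that is not stated and differs between lists, and the authors' deposited −log10 q-value. The labels name the builds ce10 and ce11; ce11 lists were used, since ce11 is the assembly WBcel235, and no coordinate was converted. Which aligner and which peak caller were used is not given in the sources used here. Per the deposited records, the pooled list was called on pooled alignments and the IDR list was derived from the pooled and both replicate lists. The lists are peaks and background, so weak entries can be background. Mitochondrial entries, present in replicate 2, were not used.

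Summits (peak start plus summit offset) were assigned to genes of Ensembl release 115 with Python 3.11.15 and numpy 2.4.6, and coordinates are 1-based. Overlap meant at least 1 shared bp. Shares have exact 95% Clopper-Pearson intervals (scipy 1.17.1), which cover counting error only. Assignment rules and motif search were tested on planted positions, which checks the code alone. No test between groups exists in this design. The labels call the 2 replicates biological and give each its own biosample, and nothing says whether the cultures were separate.

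Named genes were all receptor genes with an IDR summit under any rule, the 10 strongest pooled promoter summits outside the IDR list, all role-list genes, and pathway genes with an IDR summit; pathway genes without one were named after their values were seen. Members, lists and rules were chosen with earlier results of these data known. Alternatives covered windows, transcript ends, overlap, stronger peaks, single replicates, gene types and motifs.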

Additional observations from a re-analysis of the deposited data

How the results depend on the processing

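Of 51 alternatives over 11 results, 28 stayed within a set limit and 23 did not. For counts of genes the limit was 1.5 times the reported count in either direction. For the GATA shares it was the reported interval. Some counts beyond their limit still gave shares inside the reported interval, such as the next one. With a promoter window reaching 2000 bp upstream, 16 receptor genes had an IDR promoter summit (5.99% against 4.85% of all genes). With IDR peaks overlapped by replicate 2 alone, the promoter, body and nearest rules were met by 1, 4 and 8 receptor genes (0.375%, 1.5% and 3.0% against 0.305%, 0.180% and 0.576%). With the stronger part of each list (at or above its median signal), the IDR body and nearest counts were 5 and 17 (1.87% and 6.37% against 0.766% and 2.77%), and the pooled body count was 36 (13.5% against 8.78%). Each replicate was left out in turn by using the other's own list, cut to its 1202 strongest peaks with no IDR step where it stands in for the IDR list. This gave 5 to 8 promoter genes in place of the IDR list's 9 (1.87% and 3.0% against 1.57% and 3.45% of all genes), 16 to 57 pooled promoter genes, 52 to 103 genes nearest to a pooled summit and, in alternatives added after seeing the data, 14 to 24 receptor genes outside chromosome V nearest to a summit, 7 to 12 with one in the body and 1 to 5 with one in the promoter. The lower count of each pair came from replicate 2 alone. The share of IDR receptor peaks with a GATA site was 17.0% within 25 bp, 66% within 100 bp, 21.3% for TGATAA alone, 61.7% for GATA with any flank and 70.0% in promoter windows alone. All peaks of that list, or all its promoter peaks for the last, gave 22.4%, 55.6%, 22.6%, 60.1% and 28.3%. In the pooled list the receptor values were 14%, 51.6%, 12.8%, 52.0% and 38.6%, against 14.8%, 44.4%, 14.5%, 52.7% and 28%. The causes were not tested. No paired analysis was possible because the samples form 1 group and no result comes from a test. Without read counts, depth cannot be weighed, and a receptor gene without a peak is one without a listed peak.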
